A study of Homo sapiens with 10 samples.

Results

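The annexins are a family of calcium-dependent membrane-binding proteins, and the 10 annexin genes described here (ANXA1, ANXA2, ANXA3, ANXA4, ANXA5, ANXA6, ANXA7, ANXA8, ANXA10 and ANXA11) were picked by gene symbol from the 46427 genes of one expression table. They were picked with earlier results of these data known, and no cut on a value was used. The adjusted p-values given here were computed over all genes tested, and they rank these genes against the rest of the table without being independent evidence for the choice. Poly(A) RNA was sequenced from 10 libraries of H460 and A549, both established human lung cancer cell lines. H460 was measured as parental cells in 2D culture (3 libraries), as cells that survived 4 µM cisplatin (CR, 1 library), 5 nM paclitaxel (PR, 2 libraries) or 0.5 µM doxorubicin (DR, 1 library), and as tumor spheroid (TS) cells (1 library). A549 was measured in 2D culture and as TS cells (1 library each). Parental and 2D cells were grown in RPMI with serum and received no drug. Drug-resistant cells received the drug for 3 days, were kept for 3 days in fresh medium and were then re-plated, so that they were survivors of one short exposure and not lines selected over many passages. TS cells were grown on non-adherent plates in RPMI with B27, basic FGF and EGF and passaged at least 3 times, so that attachment, serum and growth factors changed together with the spheroid form. The labels do not say whether the replicates were separate cultures, and the p-values therefore measure only the spread between these libraries.

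Each annexin carries a repeated core and a variable N-terminal tail that binds partner proteins. In most members the core docks onto negatively charged phospholipids when calcium rises. Through these contacts the family takes part in membrane repair, exocytosis, endocytosis and the anchoring of the actin cytoskeleton, and in epithelial cells several members are among the abundant cytosolic proteins. ANXA2 pairs with S100A10 and holds plasminogen and its activator at the cell surface. ANXA1 is induced by glucocorticoids and signals through formyl peptide receptors, and ANXA5 is the protein used as a probe for phosphatidylserine on dying cells.

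The libraries held 59499787 to 89541774 reads on genes, and no pair of replicates looked like one library deposited again (chi-square per gene of 62.9 to 268.8). Keratin genes marked H460 as epithelial, but the epithelial cadherin gene CDH1 and EPCAM were at or near 0 FPKM in all H460 libraries, so that 3 of 5 epithelial markers reached 1 FPKM in H460 while in A549 it was 4 of 5 in 2D and 5 of 5 in TS cells. Lung epithelial markers did not reach 1 FPKM in any group. The summed fibroblast markers ranged from 1.05 to 4.42 FPKM in parental and from 5.39 to 13.4 in drug-resistant H460. The summed leukocyte markers ranged from 2.78 to 9.49 and from 11.5 to 17.2 FPKM, of which CD14 was the only gene at 1 FPKM or more, while PTPRC and CD3E were at 0 in the parental libraries and PTPRC had 4 to 85 reads in the drug-resistant ones. COL1A1, a fibroblast marker, was higher in drug-resistant cells (log2 fold change 4.35, edgeR adjusted p = 0.00208). Of the other fibroblast markers, PDGFRB did not pass (0.98, edgeR adjusted p = 0.0994). COL1A2 had 0 to 18 reads in the drug-resistant libraries and was not tested. VWF, an endothelial marker, had 3 to 9 reads in the parental and 13 to 70 in the drug-resistant libraries and stayed below 0.1 FPKM. It passed the filter on low counts only through the drug-resistant libraries, so that its p-value is not printed. The part of these shifts in the annexin results was not tested. The library names come in 2 written forms, the first on PR replicate 1, the parental libraries 1 and 3, H460 TS and both A549 libraries, and the second on CR, DR, PR replicate 2 and the second parental library. What the forms stand for is not stated. Changes within each form are given for the annexins called in drug-resistant cells, and not for the other results.

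In parental H460 cells ANXA2 and ANXA1 stood far above the rest of the family. FPKM, the count of fragments divided by transcript length and library size, allows levels to be compared between genes. ANXA2 was at 376, 544 and 595 FPKM in the 3 parental libraries and ANXA1 at 358, 498 and 337 FPKM, and the ranges of these genes overlapped. ANXA5 came next at 139 ± 35.6 FPKM (SD, n = 3), below every ANXA1 value. ANXA7, also known as synexin, a protein that fuses secretory granules in vitro, was at 59.4 ± 7.95 FPKM. Its range overlapped that of ANXA6, the largest annexin, with a duplicated core, at 48.6 ± 11.7 FPKM. ANXA11 (21.6 ± 0.644 FPKM), ANXA3 (19.0 ± 10.3 FPKM) and ANXA4 (12.2 ± 1.37 FPKM) followed with overlapping ranges between neighbours. ANXA10, best known from gastric epithelium, was at 0.429 ± 0.214 FPKM, and no read was counted on ANXA8 in any parental library.

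ANXA1 and ANXA2 together made up 70.1% to 82.5% of the summed FPKM of the 10 genes in every library. The balance between them was less constant. The ratio of ANXA2 to ANXA1 FPKM was 1.05, 1.09 and 1.77 in the parental libraries, 1.64 to 2.05 in the drug-resistant libraries and 1.10 in the H460 spheroids. In A549 it was 2.12 in 2D and 4.69 in TS cells. Over all 10 libraries the SD of log2(FPKM + 1) was 1.45 for ANXA4, 1.27 for ANXA3, 0.96 for ANXA10 and 0.84 for ANXA8, against 0.15 for ANXA7, 0.25 for ANXA11 and 0.26 for ANXA1. Of the 10 genes, 9 had reads in every library and reached 1 FPKM in at least 2 libraries. ANXA8 was the exception.

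**Figure D1:**
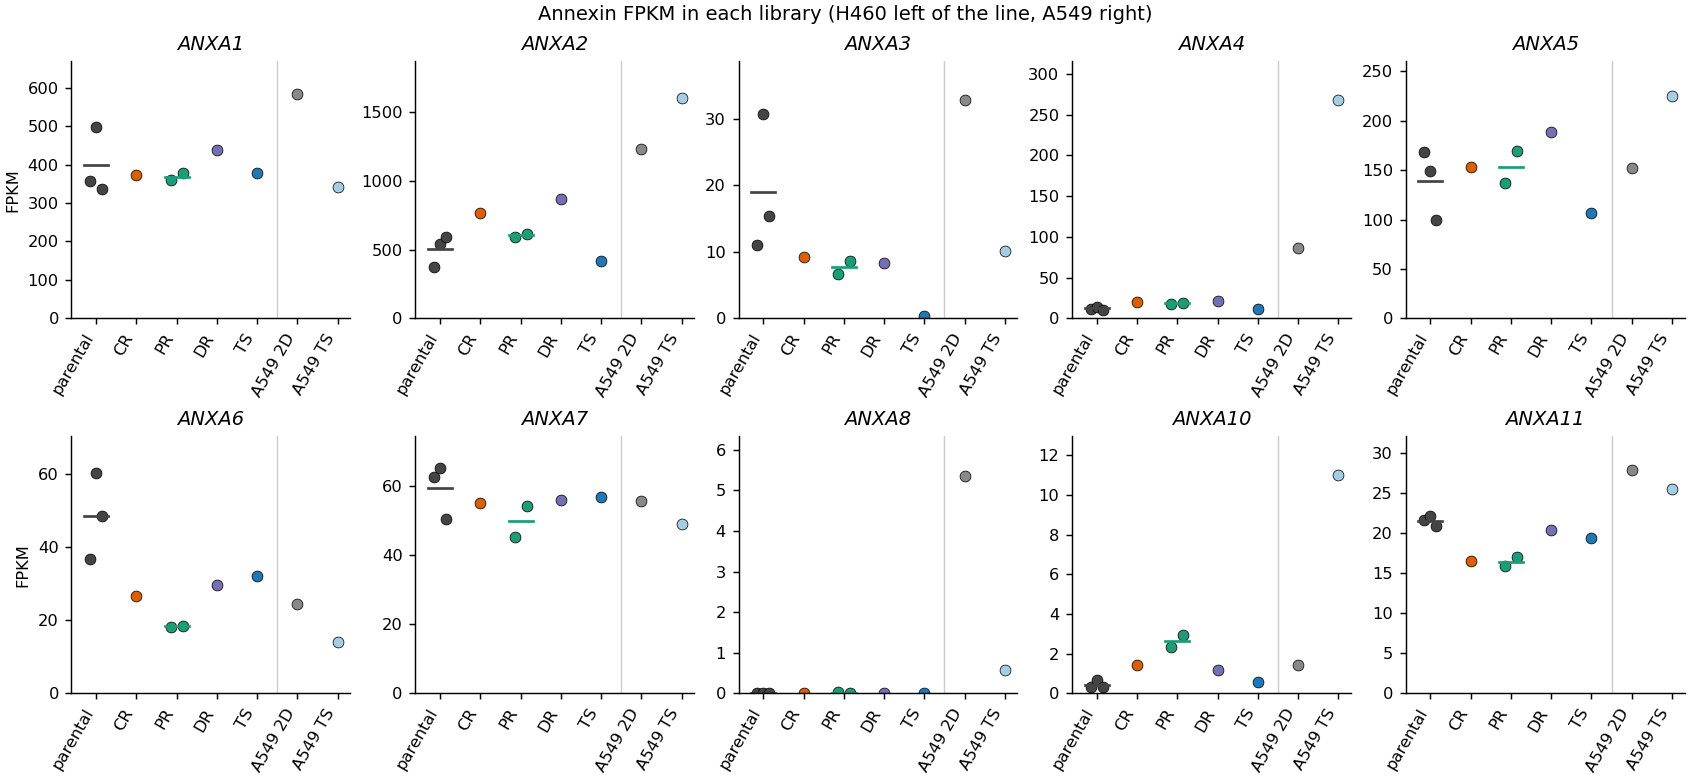
Level of each annexin in FPKM, with 1 panel per gene and an axis of its own from 0, in each of the 10 libraries. Points are libraries, coloured by group, and the short lines are the means of the parental and PR libraries. ANXA2, ANXA4 and ANXA8 stand higher in A549 than in H460, and ANXA3 is lowest in H460 TS cells at 0.403 FPKM.

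The 3 genes that moved furthest in drug-resistant H460 were ANXA3, ANXA6 and ANXA10, and the 250 bases upstream of their transcription starts are printed to show the sequence in front of them. The sequences come from RefSeq (GRCh38.p14), run 5′ to 3′ on the strand of the gene, and carry in capitals any match on either strand to 4 promoter motifs: the TATA box (TATAAA), the CCAAT box (CCAAT), the GC box (GGGCGG) and the AP-1 motif (TGANTCA). No motif contains another.
ANXA3 promoter (chr4:78551520-78551769, plus strand): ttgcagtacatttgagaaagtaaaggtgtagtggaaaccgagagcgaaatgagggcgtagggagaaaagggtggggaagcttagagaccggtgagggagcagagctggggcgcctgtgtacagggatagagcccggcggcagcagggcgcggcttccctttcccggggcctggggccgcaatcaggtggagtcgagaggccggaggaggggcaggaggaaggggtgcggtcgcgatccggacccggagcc
ANXA6 promoter (chr5:151157780-151158029, minus strand): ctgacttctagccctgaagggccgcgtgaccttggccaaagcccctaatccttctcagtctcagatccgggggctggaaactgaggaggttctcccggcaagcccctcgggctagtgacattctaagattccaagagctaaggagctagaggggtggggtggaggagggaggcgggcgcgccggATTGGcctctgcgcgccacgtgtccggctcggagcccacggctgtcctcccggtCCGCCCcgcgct
ANXA10 promoter (chr4:168092287-168092536, plus strand): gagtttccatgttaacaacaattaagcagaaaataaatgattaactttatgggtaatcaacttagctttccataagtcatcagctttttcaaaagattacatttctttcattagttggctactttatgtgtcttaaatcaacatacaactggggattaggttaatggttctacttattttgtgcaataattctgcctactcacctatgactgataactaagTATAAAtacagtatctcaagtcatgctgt

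The ANXA3 window was 64.0% G and C and held none of the 4 motifs. That of ANXA6 was 65.6% G and C, with 1 CCAAT box and 1 GC box, and it is the first of the windows listed for the gene. The ANXA10 window was 31.2% G and C and held 1 TATA box. A promoter was matched for 9 of the 10 genes (13 windows), ANXA8 being without an entry. A TATA box was found for 4 of the 9, where 10.7% of 35116 windows in the table hold one, a CCAAT box for 4 (32.0% of windows), a GC box for 6 (42.6% of windows) and the AP-1 motif for 1, ANXA2 (6.57% of windows). Some of the genes have several windows and so more chances of a match than a single window.

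The drug-resistant cells were compared with parental H460 as one group of 4 libraries (CR, DR and both PR) against 3. ANXA10 and ANXA4 rose and ANXA3 and ANXA6 fell, and the abundant ANXA1, ANXA2 and ANXA5 did not pass the test. With edgeR's quasi-likelihood test and Benjamini-Hochberg adjustment, 4 of the 9 annexins tested passed an adjusted p of 0.05, 2 in each direction. Over all 18398 genes 33.8% passed, so that the count of annexins was close to the background. The median log2 fold change of the 9 genes was -0.14, beside 0.06 for all genes. In bulk RNA, fewer cells expressing a gene and less of its RNA per cell cannot be told apart.

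ANXA10 (NCBI Gene 11199, chr4:168092537-168187736) was at 0.307, 0.676 and 0.304 FPKM in the parental libraries, at 1.42 in CR, at 2.37 and 2.94 in PR and at 1.18 in DR. All 4 drug-resistant libraries lay above all 3 parental ones. The log2 fold change was 2.05 (SE 0.417, edgeR adjusted p = 0.00469), from 38 to 74 reads per parental library and 173 to 289 per drug-resistant library.

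ANXA3 (NCBI Gene 306, chr4:78551770-78610447), a phospholipid-binding annexin also called lipocortin III, went the other way. It was at 11.0, 30.7 and 15.5 FPKM in parental cells, at 9.16 in CR, at 6.64 and 8.67 in PR and at 8.37 in DR. The groups did not overlap, although the parental libraries spread widely and the lowest of them was close to CR. The log2 fold change was -1.30 (SE 0.296, edgeR adjusted p = 0.00816).

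ANXA6 (NCBI Gene 309, chr5:151100706-151157779), which organises cholesterol-rich membranes and endocytosis, was at 36.9, 60.3 and 48.5 FPKM in parental cells. In CR it was at 26.7, in PR at 18.2 and 18.5 and in DR at 29.7 FPKM. Every drug-resistant library was below every parental library, and both PR libraries were the lowest. The log2 fold change was -1.15 (SE 0.260, edgeR adjusted p = 0.00778).

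ANXA4 (NCBI Gene 307, chr2:69643808-69827112), an annexin of epithelial cells that assembles on membranes, was at 12.1, 13.7 and 10.9 FPKM in parental cells. It was at 20.5 in CR, at 18.0 and 18.7 in PR and at 21.1 in DR, with tight groups that did not overlap. The log2 fold change was 0.61 (SE 0.171, edgeR adjusted p = 0.0211). This call was lost, with adjusted p-values of 0.0507 to 0.0660, when parental replicate 1, parental replicate 2, CR or DR was left out, when no filter on low counts was used and when the form of the library name was added as a covariate. The log2 fold change of ANXA4 in those fits was 0.52 to 0.63, about as large as in the main fit. ANXA3, ANXA6 and ANXA10 passed under all 13 alternatives tried. The FPKM filter and the limma fit keep only genes of at least 1 FPKM in at least 2 libraries. ANXA10 reached that only through the drug-resistant libraries, so that its passes in those fits are no support for it.

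The other annexins moved less. ANXA2 (NCBI Gene 302, chr15:60347151-60397986) was at 767 FPKM in CR, 594 and 617 in PR and 873 in DR, and the parental range reached up into the PR values. Its log2 fold change was 0.49 (SE 0.213, edgeR adjusted p = 0.1004), and it passed only with upper-quartile scaling (0.66, adjusted p = 0.0353), a scaling that moved the median of all genes from 0.06 to 0.23. Parts of ANXA2 are repeated in the processed pseudogene ANXA2P2, with 10.2% of its 75-base transcript windows shared, so that its counts carry some uncertainty. ANXA11, an annexin that binds PDCD6 and S100A6, was at 21.7, 22.1 and 20.9 FPKM in parental cells, at 16.5 in CR, at 15.9 and 17.1 in PR and at 20.5 in DR. These values did not overlap either, but the log2 fold change of -0.35 (SE 0.180) had an adjusted p of 0.152 in edgeR.

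ANXA1 (NCBI Gene 301, chr9:73151865-73170393) was at 374 FPKM in CR, 359 and 377 in PR and 439 in DR, all inside the parental range of 337 to 498. ANXA5 (NCBI Gene 308, chr4:121667946-121696980) was at 168, 149 and 99.3 FPKM in parental cells, at 153 in CR, at 137 and 169 in PR and at 188 in DR. Its highest values were DR and PR replicate 2, but the groups overlapped. ANXA7 (NCBI Gene 310, chr10:73375101-73414058) was at 62.8, 65.2 and 50.4 FPKM in parental cells and at 45.3 to 56.0 in drug-resistant cells. The log2 fold changes of ANXA1 (-0.14), ANXA5 (0.12) and ANXA7 (-0.27) had adjusted p-values of 0.271 to 0.704 in the edgeR test. Counting the 9 annexins that reached 1 FPKM in at least 2 libraries, the ranges did not overlap for 5, beside 39.0% of 12755 genes under the same filter. ANXA10 passed that filter only through the drug-resistant libraries, and without it the count was 4 of 8. The balance of calls depended on the scaling, since of the genes called 3397 rose and 2823 fell in the main analysis, against 4210 and 2032 with upper-quartile scaling.

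Within each form of the library name the directions of the 4 genes were the same on the log2(FPKM + 1) scale. For PR replicate 1 against parental replicates 1 and 3 the differences were -0.88 for ANXA3, 0.60 for ANXA4, -1.18 for ANXA6 and 1.37 for ANXA10. For CR, DR and PR replicate 2 against parental replicate 2 they were -1.70, 0.52, -1.26 and 0.71.

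Each drug was then compared with the same 3 parental libraries, so that these results share their controls. Paclitaxel was the drug with 2 libraries. In PR cells 3 of 9 annexins passed, beside 28.1% of 19430 genes, with ANXA3 lower (log2 fold change -1.53, SE 0.403, edgeR adjusted p = 0.0216), ANXA6 lower (-1.64, SE 0.277, adjusted p = 0.00441) and ANXA10 higher (2.38, SE 0.444, adjusted p = 0.00581). ANXA4 (0.39, adjusted p = 0.209) and ANXA11 (-0.58, adjusted p = 0.0863) did not pass. The median of the 9 genes was -0.34, beside 0.05 for all genes. Without PR replicate 2 none of the 9 passed in edgeR, at adjusted p-values of 0.123 for ANXA3 and 0.0671 for both ANXA6 and ANXA10, and 950 genes passed in place of 5455. The log2 fold changes were then -1.68, -1.61 and 2.25, and in that fit the spread between replicates came from the parental libraries alone, the lone PR library being assumed to vary like them. ANXA3 also fell out without PR replicate 1, or without parental replicate 2 (edgeR adjusted p = 0.0591). Its log2 fold changes were then -1.39 and -1.07, and the fit without PR replicate 1 again had a lone PR library.

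CR and DR had 1 library each and were not tested. None of the 10 annexins was past 2-fold on the log2(FPKM + 1) scale in CR, beside 6.37% of 25607 genes, or in DR, beside 5.02% of 28844 genes. The pseudocount of 1 understates low genes, and with one of 0.1 ANXA10 differed by 1.59 on the log2 scale in CR and 1.35 in DR. With a pseudocount of 0.1 the count was 1 in CR and 2 in DR, and with upper-quartile scaling it was 0 in CR and 3 in DR. The counts over all genes also rose, with a pseudocount of 0.1 in both libraries and with upper-quartile scaling in DR. They are listed with the dependence on the processing. In both libraries ANXA2, ANXA4 and ANXA10 were above and ANXA3, ANXA6 and ANXA11 below all 3 parental values. ANXA5 was above them in DR only. A single library often falls outside the range of 3 others by chance. No share over all genes is given, so these positions are description only. In CR the differences from the parental mean were 0.63 for ANXA2, 0.70 for ANXA4, 0.77 for ANXA10, -0.86 for ANXA3, -0.81 for ANXA6 and -0.37 for ANXA11. In DR they were 0.82, 0.74, 0.62, -0.97, -0.66 and -0.07 in the same order. The doses of the 3 drugs differ in amount and kind, and no drug was tested against another.

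**Figure D2:**
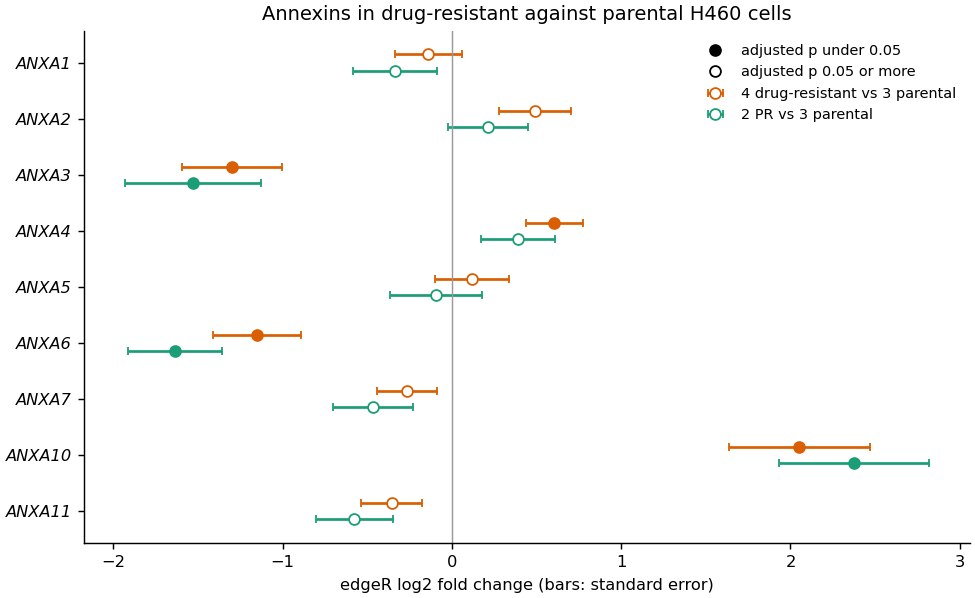
edgeR log2 fold change of the 9 annexins tested, with bars of 1 standard error, for 4 drug-resistant and for 2 PR libraries against the same 3 parental libraries. Filled points passed an adjusted p of 0.05. ANXA3 and ANXA6 lie to the left and ANXA10 to the right of 0 in both comparisons.

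TS culture was compared with 2D culture in both lines. ANXA3 was the annexin with the largest difference in H460, where 42 reads were counted on it in the TS library. Its level was 0.403 FPKM in H460 TS cells against 11.0 to 30.7 in parental H460, and at 10.1 FPKM in A549 TS cells against 32.7 in A549 2D cells. On the log2(FPKM + 1) scale these differences were -3.71 in H460 and -1.61 in A549.

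Past 2-fold in H460 TS cells there was 1 of 10 annexins, ANXA3, beside 1.94% of 24852 genes. Past 2-fold in A549 TS cells there were 4 of 10, beside 5.02% of 24423 genes. ANXA4 was at 86.0 FPKM in A549 2D cells against 268 in the spheroids (difference of 1.63), and ANXA10 at 1.42 and 11.0 FPKM (2.31). ANXA8 was at 5.36 and 0.579 FPKM (-2.01), from 817 and 97 reads. Epithelial markers differed between the same A549 libraries, with KRT8 higher in TS cells by 1.42 on the log2(FPKM + 1) scale, KRT18 by 1.27 and KRT19 by 3.92, while EPCAM (0.08) and CDH1 (0.33) were not past 2-fold. CD14 was higher by 1.73. KRT19 went the other way in H460 TS cells, at 138 FPKM against a parental mean of 374 (-1.43). KRT8 (0.05), KRT18 (0.27) and CD14 (0.43) were not past 2-fold there. The part of these shifts in the annexin differences was not tested. In H460 TS cells ANXA4 (12.0 FPKM) and ANXA10 (0.585 FPKM) were within the parental range, and no read was counted on ANXA8.

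In the edgeR model with line and culture as terms none of the 10 annexins passed, beside 0.191% of 18372 genes. Of the 10, 3 had an unadjusted p under 0.05. The share of all genes under that limit is not given, so that this count is description only. DESeq2 called 1 of the 10 annexins, beside 527 of 16896 genes. For ANXA3 the log2 fold change was -3.67 (SE 1.08, unadjusted p = 0.0116, adjusted p = 0.364), and DESeq2 gave -3.76 (adjusted p = 0.000216), with adjusted p-values of 0.000216 to 0.591 over the 8 alternatives. ANXA6 (-0.64, adjusted p = 0.649) and ANXA8 were the others with a low unadjusted p. ANXA8 had no read in the H460 libraries of this model, so that its value rests on 1 A549 library of each culture and is no support for the count. ANXA6 was at 32.2 FPKM in H460 TS cells, below all 3 parental values, and in A549 it was at 24.6 FPKM in 2D and at 14.2 in TS culture, with no test within a line.

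Whether the TS response differed between the lines was tested as an interaction. None of the 9 annexins that could be estimated passed in edgeR, beside 0.436% of 19941 genes by adjusted p. Of the 9, 3 had an unadjusted p under 0.05. The share of all genes under that limit is not given, so that this count is description only. The difference of the responses was 3.85 for ANXA3 (SE 0.909, adjusted p = 0.149), 1.66 for ANXA4 (SE 0.542, adjusted p = 0.352) and 2.52 for ANXA10 (SE 0.945, adjusted p = 0.477), each as the A549 minus the H460 log2 fold change. DESeq2 called ANXA3 (3.89, adjusted p = 0.00129), as did edgeR without parental replicate 1 (4.14, adjusted p = 0.00395). These p-values are weak evidence, since each condition other than parental had 1 library. The spread between replicates comes from the 3 parental libraries alone, or from 2 of them when replicate 1 is left out. In the edgeR fit the responses of the epithelial marker KRT19 differed by 5.73, and its part in the annexin values was not tested.

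**Figure D3:**
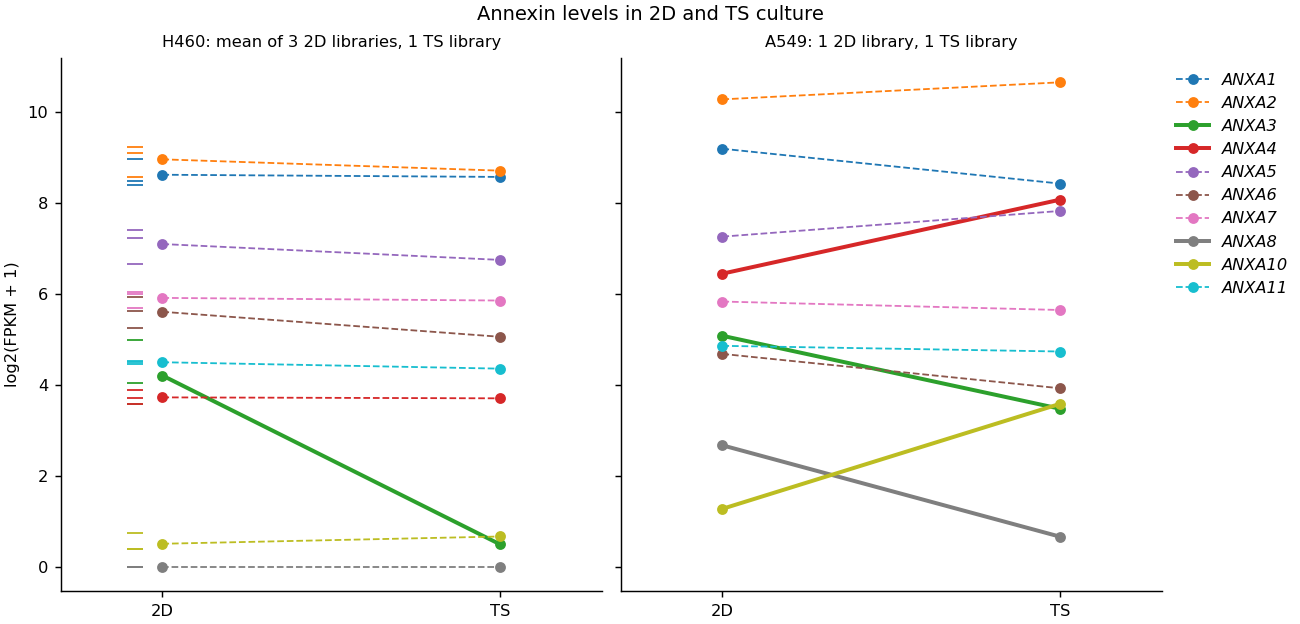
log2(FPKM + 1) of each annexin in 2D and TS cells of H460 and A549, with 1 library for each TS and for A549 2D, and the parental mean for H460 2D, where ticks mark the single parental libraries. Thick lines mark differences past 2-fold. ANXA3 is lower in TS cells of both lines, at 0.403 FPKM against a mean of 19.0 in H460, and ANXA4 and ANXA10 are higher in TS cells of A549.

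The lines themselves differed in several annexins. In the same model of 2D and TS libraries, 5 of 10 annexins passed for A549 against H460, beside 23.9% of 18372 genes, 4 of them higher and 1 lower in A549. Among the higher genes ANXA8 had no read in the H460 libraries and entered the test only through A549, and without it the count was 4 of 9. ANXA4 was at 10.9 to 13.7 FPKM in the H460 2D and TS libraries and at 86.0 and 268 in the A549 libraries, a log2 fold change of 3.53 (SE 0.386, edgeR adjusted p = 0.00148). ANXA2 was at 376 to 595 FPKM in H460 and at 1237 and 1604 in A549, a log2 fold change of 1.60 (SE 0.247, adjusted p = 0.00539). Neither gene overlapped between the lines. Markers of cell type differed in the same fit. KRT8 (2.39), KRT18 (2.65), EPCAM (3.16) and COL1A1 (3.64) passed as higher in A549, while KRT19 (-4.10) did not pass. CDH1 was at 9.29 and 11.9 FPKM in A549 and near 0 in H460. PDGFRB was at 0.862 to 4.23 FPKM in H460 and at 0.034 and 0 in A549. The part of these shifts in the line results was not tested.

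Other members were not called between the lines. ANXA7 was at 55.8 FPKM in A549 2D and 49.0 in A549 TS culture, beside 56.7 in H460 TS cells (log2 fold change -0.15, SE 0.212, edgeR adjusted p = 0.650). ANXA11 was at 28.0 and 25.6 FPKM in the A549 libraries and 19.5 in H460 TS cells (0.34, SE 0.204, adjusted p = 0.271). ANXA1 was at 582 FPKM in A549 2D and 342 in A549 TS culture, of which the second was inside the H460 range of 337 to 498 (0.28, SE 0.264, adjusted p = 0.482). ANXA5 was at 152 and 225 FPKM in A549 and 106 in H460 TS cells (0.53, SE 0.326, adjusted p = 0.285).

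ANXA10 was 2.78 higher on the log2 scale in A549 (SE 0.703, edgeR adjusted p = 0.0301) and ANXA6 was lower (-1.07, SE 0.269, adjusted p = 0.0302). Both calls depended on the parental libraries. ANXA10 did not pass without replicate 1 (adjusted p = 0.0638) or replicate 3 (0.0712), and ANXA6 did not pass without replicate 2 (0.0652) or replicate 3 (0.0505). ANXA3 was not called in edgeR (2.38, SE 0.977, adjusted p = 0.126), but it was in DESeq2 (2.48, adjusted p = 0.00835) and in limma on log2(FPKM + 1) (1.72, adjusted p = 0.0479), with adjusted p-values of 0.00835 to 0.202 over the 8 alternatives. Among the 9 annexins at 1 FPKM or more in at least 2 libraries, 5 had ranges that did not overlap between the lines, beside 47.8% of 12674 genes. ANXA10 passed that filter only through the A549 libraries, and without it the count was 4 of 8.

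ANXA8 (NCBI Gene 653145), an annexin of stratified and injured epithelia, was read in A549 and hardly at all in H460. It had 0 reads in all 4 H460 2D and TS libraries, 5 and 4 reads in PR, 0 in CR and DR, and 817 reads in A549 2D cells. Set against a floor of 3 reads per H460 library, the reads, scaled to library size, were at least 262-fold higher in A549 2D and at least 28.7-fold higher in A549 TS cells. It passed the filter on low counts only through A549, so that its p-value is not printed. The near-copy ANXA8L1 shares 72.8% of its 75-base transcript windows with ANXA8, and the counts of the pair could have been split between them. ANXA8L1 followed the same pattern, with 0 reads in the 4 H460 2D and TS libraries, 709 in A549 2D and 43 after TS culture.

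Partners of the annexins were read from lists of genes with known links to the family. Among the EF-hand proteins that bind annexin tails, 3 of 6 rose and 1 fell in drug-resistant H460, where 18.5% of all tested genes rose and 15.3% fell. S100A10, the partner of ANXA2, was at 289, 368 and 344 FPKM in parental cells, at 450 in CR, at 380 and 450 in PR and at 563 in DR, and did not pass (log2 fold change 0.36, edgeR adjusted p = 0.211). S100A11, which binds ANXA1, rose (0.57, adjusted p = 0.0432), as did S100A6 (0.81, adjusted p = 0.0463) and S100A4 (1.56, adjusted p = 0.00660). SRI, the sorcin that binds ANXA7, fell (-0.84, adjusted p = 0.00666). PDCD6, the partner of ANXA11, was at -0.24 (adjusted p = 0.328).

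The plasmin system, which the ANXA2 and S100A10 complex brings to the cell surface, had 2 of 3 tested genes higher in drug-resistant cells, both of them plasminogen activators, beside 18.5% of all genes. PLAT, the tissue-type activator, was at 6.11, 12.7 and 12.6 FPKM in parental cells, at 97.3 in CR, at 35.1 and 39.6 in PR and at 59.9 in DR (log2 fold change 2.38, SE 0.437, edgeR adjusted p = 0.00280). PLAU, urokinase, was at 18.4, 38.1 and 44.2 FPKM in parental cells, at 125 in CR, at 177 and 236 in PR and at 168 in DR (2.26, SE 0.323, adjusted p = 0.000810). Neither gene overlapped between the groups. The urokinase receptor gene PLAUR was at 0.43 (adjusted p = 0.155), and PLG, the gene of plasminogen itself, was too low to test. No plasmin activity was measured.

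Of the ANXA1 receptors, FPR1, FPR2 and FPR3 were too low to be tested in drug-resistant H460, and PLA2G4A, the phospholipase that ANXA1 inhibits, was at -0.55 (edgeR adjusted p = 0.0621). In the membrane repair list 2 of 8 tested genes rose and none fell, a share near the 18.5% of all genes that rose. They were MYOF (0.90, edgeR adjusted p = 0.0240) and CAPN2 (0.91, adjusted p = 0.00749). In PR cells alone the genes called included S100A4 (1.04, adjusted p = 0.0439), SRI (-0.92, adjusted p = 0.0335), PLAT, PLAU and CAPN2 (0.78, adjusted p = 0.0381), while 28.1% of all genes were called. TRIM72 had 19 and 48 reads in PR and none in parental cells, and it passed the filter on low counts only through PR.

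None of the partner genes passed in TS against 2D culture in edgeR, beside 0.191% of all genes. PLAT, PLAU and PLA2G4A had an unadjusted p under 0.05 there, a limit for which the share of all genes is not given. PLAU was at 18.4 to 44.2 FPKM in parental H460 and 3.04 in H460 TS cells, and at 84.9 and 24.4 FPKM in A549 2D and TS cells. Between the lines, PLAU (2.03, edgeR adjusted p = 0.0331) and CAPN1 (1.48, adjusted p = 0.00925) were higher in A549, as were CAPNS1 and CHMP4B. FPR1 was at 1.10 and 1.53 FPKM in the A549 libraries, and FPR2 stayed below 1 FPKM with 24 and 18 reads, against 0 to 6 reads for either gene in the H460 2D and TS libraries. No EF-hand partner was called between the lines. In the membrane repair list 3 of 8 tested genes were higher and none lower, beside 14.4% of all genes higher and 9.42% lower.

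**Figure D4:**
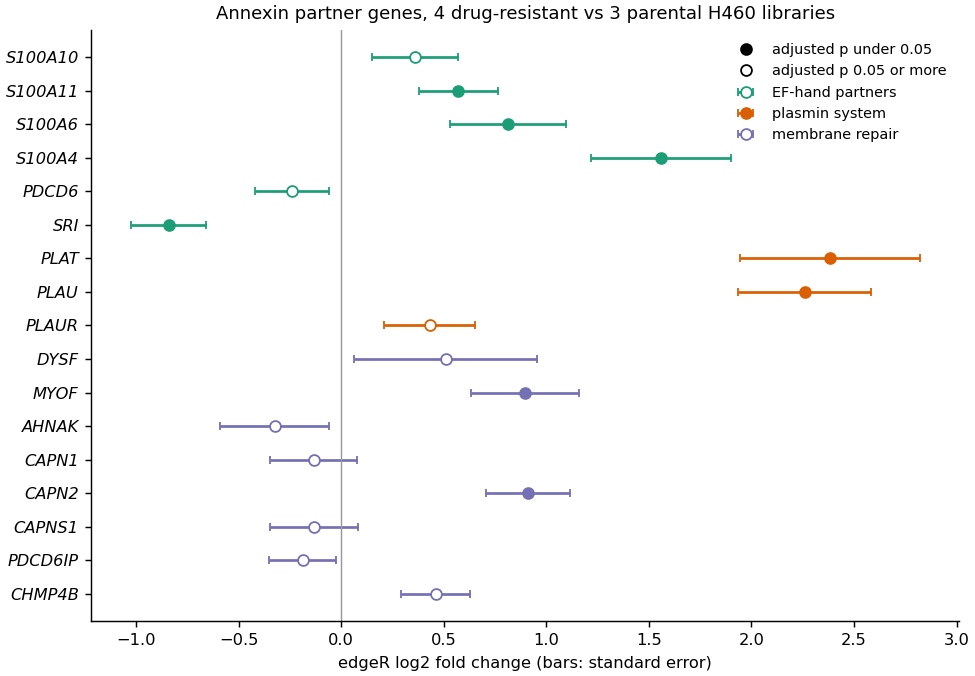
edgeR log2 fold change, with bars of 1 standard error, of the tested partner genes in 4 drug-resistant against 3 parental H460 libraries, grouped by list. Filled points passed an adjusted p of 0.05. PLAT and PLAU lie furthest to the right at 2.38 and 2.26, and SRI lies at -0.84.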

How the data were processed

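Poly(A) RNA sequencing counts, FPKM and TPM of 46427 genes were deposited by the authors in one table for 10 libraries. The submitters' processing notes name bcl2fastq 1.8.4, Trimmomatic, HISAT2 2.1.0, StringTie 2.1.3b and GRCh38. The deposited counts are whole reads per gene. The deposited FPKM values are scaled by gene length and library size, and the deposited TPM values were not used. How reads shared by near-identical genes were assigned, and whether strand was used, is not given in the sources used here.

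Counts were tested with edgeR 4.0.16 in R 4.3.3 (TMM scaling, filterByExpr, quasi-likelihood F test). The p-values were adjusted by Benjamini-Hochberg over all genes tested, with 0.05 as the threshold, and standard errors were taken as the log2 fold change divided by the square root of F. The drug-resistant fit used parental, CR, PR and DR libraries, the PR fit parental and PR libraries, and the TS and line fits the 2D and TS libraries with line and culture as terms (the interaction was added for the difference in response). Single libraries were compared by log2(FPKM + 1) against the parental mean, with 2-fold as the limit and no test. This scale understates changes of low genes. The method was tested on simulated counts with 200 changed genes, and it recovered 90.7% of changes of 1 on the log2 scale in the drug-resistant design, 76.8% in the PR, 77.3% in the TS, 82.7% in the line and 11.5% in the interaction design. False calls were 4.76%, 6.29%, 2.91%, 6.84% and 2.35% of the calls, in the same order, above the nominal 5% for PR and line. The simulated counts had the same fixed dispersion for every gene. They held no difference between drugs or lines other than the changes put in. The spread of the real libraries was not built in, so that these rates describe the simulation and not the power or error in these data.

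The members and gene lists were chosen with earlier results of these data known. Named genes were the 10 annexins and the listed partners, plus the 3 genes closest in pattern to each of the most variable annexins. A few genes that these lists and rules cover are not reported here. Alternatives were DESeq2 1.42.0, upper-quartile scaling, no filter, a filter of 1 FPKM in at least 2 libraries, limma 3.58.1 on log2(FPKM + 1), leaving out each parental library in turn (in the drug comparisons also each drug-resistant library), the form of the library name as a covariate, a replicate block, a pseudocount of 0.1 and single parental libraries as the control. Promoter sequences and positions came from RefSeq tables (GRCh38.p14).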

Additional observations from a re-analysis of the deposited data

Results flagged for a closer look

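ANXA7 stood apart in 1 of the 4 drug-resistant libraries. Its level was 45.3 FPKM in PR replicate 1, against 54.2 in PR replicate 2, 55.2 in CR and 56.0 in DR, and the gap to the nearest value was 0.834 of the whole range, just over Dixon's critical value for 4 samples. Chance marks about 1 in 20 such groups, and the other 9 annexins were examined in the same way without a value past the limit. Its log2 fold change in drug-resistant cells was -0.27 (edgeR adjusted p = 0.271).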

How the results depend on the processing

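Of 623 single-gene values under an alternative, 545 were counted as unchanged, 46 moved, 15 lost and 6 gained the call, and 11 changed sign. For tested values, unchanged means the same direction and the same side of the threshold. For the untested single-library differences it means within the SD of the parental libraries from the main value, and moved means further off. Among these a change of sign was counted only where the main difference was past 2-fold, so smaller ones are not among the 11. No value past the threshold changed sign. In drug-resistant cells ANXA1 was at 0.03 with upper-quartile scaling, and ANXA5 at 0.00 with the library-name form as a covariate and at -0.081 to 0.255 over the leave-one-out fits, the lowest without parental replicate 3. In PR cells ANXA5 was at 0.16 with upper-quartile scaling, 0.087 with the FPKM filter, 0.16 in limma and -0.25 to 0.091 over the leave-one-out fits, above 0 without parental replicate 1 or PR replicate 1. ANXA11 in TS culture was at -0.14 in limma, ANXA5 there at -0.014 to 0.158 over the leave-one-out fits, and the interaction of ANXA6 at -0.287 to 0.004, the highest without parental replicate 1. In PR cells 0 to 3 annexins were called over the leave-one-out fits. DESeq2 called 1 annexin for TS culture and 1 for the interaction. The interaction had 0 to 1 annexin called over the leave-one-out fits, and the line comparison 3 to 4. For CR, 1 annexin was past 2-fold with a pseudocount of 0.1, and 0 to 2 with a single parental control (1 with replicate 1, 2 with replicate 2). For DR it was 2 with a pseudocount of 0.1, 3 with upper-quartile scaling, 1 with parental replicate 1 and 1 with parental replicate 2.

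Counts over all genes moved more. PR calls were 2742 with the FPKM filter, 3026 in limma and 950 to 6661 over the leave-one-out fits, the lowest without PR replicate 2. With upper-quartile scaling 4252 PR calls were higher and 1347 lower, against 3391 and 2064. TS calls were 527 in DESeq2, 19 with the FPKM filter and 6 to 35 leaving out a parental library. Line calls were 2843 with the FPKM filter and 2644 to 3905 leaving one out. Interaction calls were 539 in DESeq2, 0 without a filter on low counts, 27 in limma and 116 to 656 leaving one out. Genes past 2-fold with a pseudocount of 0.1 were 3891 in CR, 3785 in DR, 1776 in H460 TS and 3430 in A549 TS cells. They were 2512 in CR with parental replicate 1 alone, 2514 in DR with upper-quartile scaling and 875 in H460 TS with parental replicate 3 alone. The causes were not tested.

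Replicate numbers were not taken as a pairing (r = 0.075 across genes, 2 pairs). With the replicate block on parental and PR replicates 1 and 2, 6775 genes and 3 annexins were called, against 6661 and 3 in those 4 libraries without it. The low depth of ANXA8 and ANXA10 in H460 and the single TS, CR and DR libraries limit what can be read from them.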

Other observations

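ANXA13, the annexin of intestinal and kidney epithelium, showed a steep difference that the 10 genes do not include. It had 0 reads in 7 of the 8 H460 libraries and 12 in DR, 264 reads (2.33 FPKM) in A549 2D cells and 7241 reads (58.5 FPKM) in A549 TS cells. Scaled to library size its reads were 25.3-fold higher in A549 TS than in A549 2D cells, with 1 library each, and at least 84.8-fold higher in A549 2D than in H460 2D and TS cells against a floor of 3 reads per library. With no read in the H460 2D and TS libraries, its TS difference rests on 1 A549 library of each culture and is given without a p-value. ANXA9 stayed between 0.0786 and 0.911 FPKM over the 10 libraries. The pseudogene ANXA2P2 was at 1.05 to 2.33 FPKM in parental and TS H460 and at 5.69 and 6.01 FPKM in A549, and was called higher in A549 together with ANXA2 (log2 fold change 1.97, edgeR adjusted p = 0.0206), with 43.9% of its windows shared with ANXA2.

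The genes closest to the most variable annexins over the 10 libraries were found among 13439 genes by the root mean square difference of centred log2(FPKM + 1), and are given as a description without a test. For ANXA4 they were RAB15 (0.20), HOXB8 (0.25) and GSDMD (0.27). For ANXA3 they included CD24P4 (0.65) and MSRB3 (0.68), a looser likeness beside its own SD of 1.27. For ANXA10 they were IRF7 (0.18), EHF (0.25) and VSIG10L (0.26). The 10 libraries share 2 cell lines, and 2 of the 10 are A549 libraries.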
